A study of Mus musculus with 20 samples.

Results

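Expression of 10 WNT pathway genes was described in mouse ovaries: the ligands Wnt4 and Wnt5a, the enhancer Rspo1, the receptors Fzd1 and Fzd4, the coreceptor Lrp6, the secreted antagonists Sfrp1 and Sfrp4, the feedback gene Axin2 and the transducer Ctnnb1. They were taken by symbol from a list of pathway genes and matched to the Ensembl identifiers of the count tables, and all 10 were found among the 54838 genes listed. Ovaries came from 20 female mice aged 77 days, each sequenced as a library of its own, with 5 libraries per group. FL1 is a Dummerstorf mouse line bred for high fertility, whereas ctrl descends from the same outbred stock without selection. Both lines carry the genotype label WT and no transgene, allele or agent is given in the labels, so that the groups differ in line and stage: each line was sampled in estrus and in diestrus. Estrus is the stage around ovulation and diestrus is the stage in which corpora lutea dominate the ovary. Each line is a breeding population, so a difference between FL1 and ctrl is a difference between these populations.

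WNT ligands are secreted glycoproteins that bind frizzled receptors on neighbouring cells. In the canonical branch, a frizzled receptor acts with the coreceptor Lrp6 to stop the breakdown of β-catenin, the product of Ctnnb1, which then switches on targets such as Axin2, a brake on the same pathway. R-spondins keep frizzled receptors on the cell surface and secreted frizzled-related proteins (SFRPs) bind WNT ligands outside the cell. In the ovary, Wnt4 and Rspo1 are known for female gonad development, and Wnt4, Fzd4 and Sfrp4 are known from work on follicles and corpora lutea.

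Counts per library ranged from 5991223 to 10352718, with a median of 6957533. Levels are given as CPM, counts scaled to a common library size and normalized over the libraries, and because 3' libraries yield a read per transcript end, CPM were not divided by gene length. Ovarian markers were present, with sums of 1225 to 3689 CPM for granulosa cells and 137 to 448 CPM for oocytes. By contrast, Amh and Insl3, markers of granulosa and theca cells, had at most 6 and 3 counts in a library and were not tested. The steroid enzyme gene Cyp17a1 was at 4.14 to 37.8 CPM in estrus and at 142 to 978 CPM in diestrus, so no library contradicted its stage by this gene. Replicate 5 of ctrl in estrus stood apart from the other libraries of its group. Its granulosa sum was 1225 CPM against 2131 to 3161 CPM, its aromatase gene Cyp19a1 was at 1.03 CPM against 5.77 to 16.7 CPM, and its luteal sum was 22718 CPM against 5382 to 17569 CPM. Its sum of fat markers was 137 CPM against 27.4 to 46.3 CPM, and its endothelial sum was 352 CPM against 219 to 250 CPM. The cause was not tested. The stage differences in ctrl and the line differences in estrus of Fzd1, Sfrp4 and Axin2 are given with and without this library.

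More of these genes were called between the stages of the cycle than between the lines. A gene was called when the adjusted p of edgeR's quasi-likelihood test, corrected over all tested genes, was at most 0.05. From estrus to diestrus, 7 of 10 genes were called in FL1, where 15.9% of all tested genes were called. Sfrp4, Fzd4 and Wnt5a were higher in diestrus, as were 8.49% of all tested genes, and Fzd1, Sfrp1, Axin2 and Wnt4 were lower, as were 7.42%. In ctrl, 3 of 10 were called, all lower in diestrus (Wnt4, Sfrp1 and Axin2), against 2.85% of all tested genes (1.06% higher and 1.78% lower). The libraries of the ctrl and FL1 stage comparisons do not overlap, and Wnt4, Sfrp1 and Axin2 were lower in diestrus in both. Between the lines, Fzd4 alone was called in diestrus, with 4.11% of all tested genes called (2.29% higher and 1.82% lower in FL1), and 0 of 10 were called in estrus, with 2.33% called (1.07% higher and 1.26% lower). At an unadjusted p under 0.05, 3 of 10 were found in estrus, against 15.9% of all tested genes. DESeq2 called 3 of 10 there (Sfrp1, Wnt4 and Wnt5a), against 647 of 13367 tested genes.

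**Figure D1:**
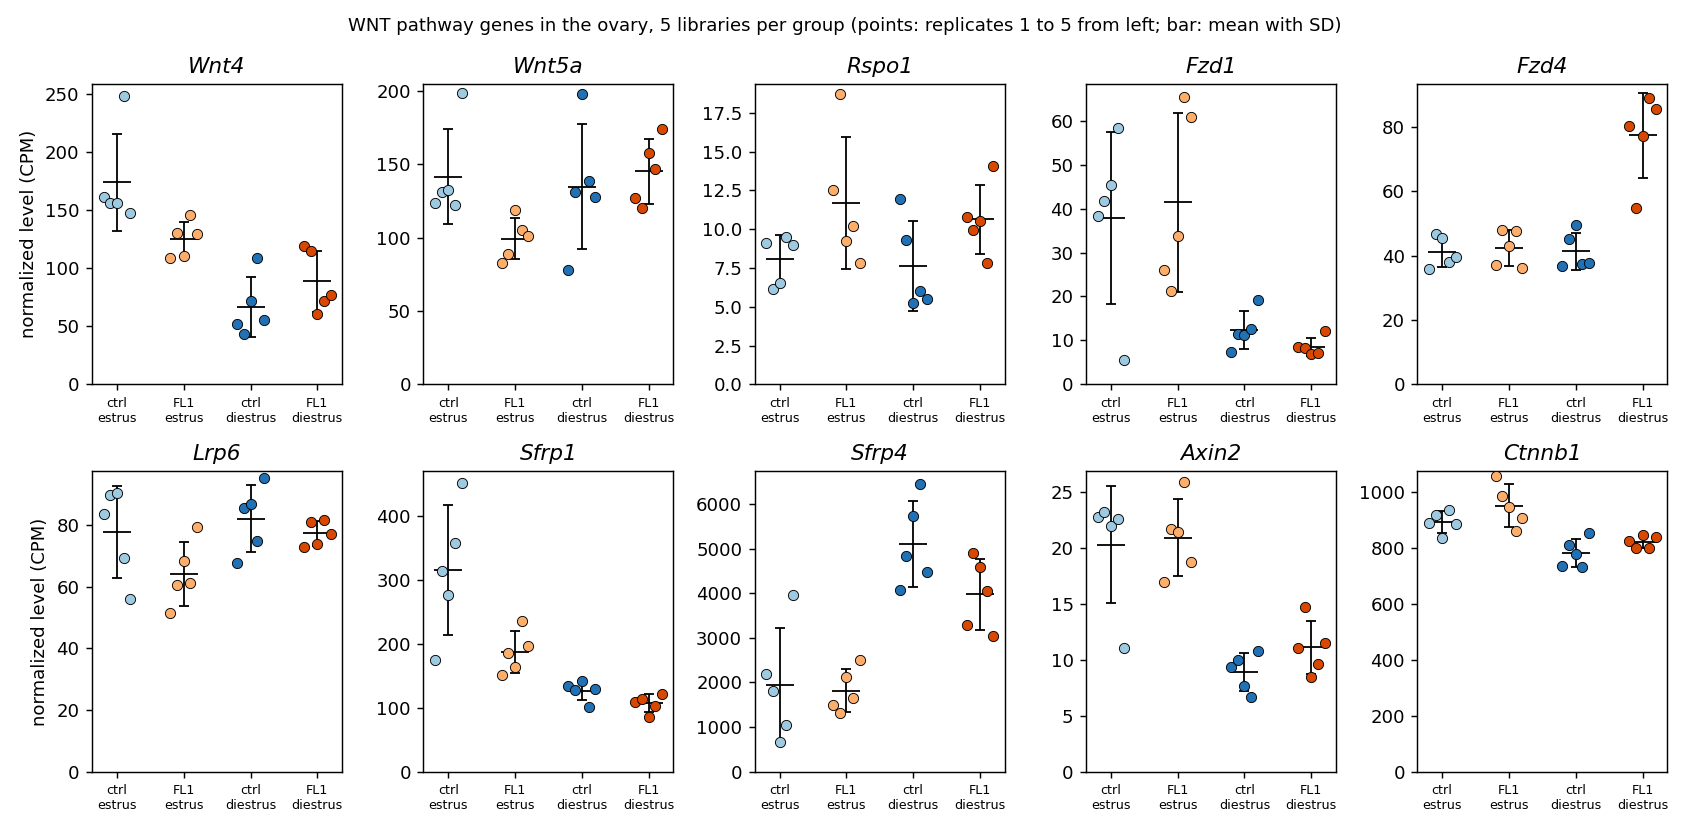
Levels of the 10 WNT pathway genes in CPM (y axis, linear, starting at 0) in the 4 groups (x axis). Each point is a library, with replicates 1 to 5 from left to right, and bars show the mean with SD (n = 5). Fzd4 lies at 54.9 to 88.9 CPM in FL1 in diestrus and at or under 49.5 CPM in the other groups. Replicate 5 of ctrl in estrus lies apart for Wnt5a, Fzd1, Sfrp4 and Axin2.

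The antagonist Sfrp4 had the highest median of the 10 genes in every group and Rspo1 or Fzd1 the lowest. In ctrl in estrus the order by median was Sfrp4, Ctnnb1, Sfrp1, Wnt4, Wnt5a, Lrp6, Fzd1, Fzd4, Axin2 and Rspo1. The ranges of Sfrp4 and Ctnnb1, Sfrp1 and Wnt4, Wnt4 and Wnt5a, Lrp6 and Fzd1, and Fzd1 and Fzd4 overlapped there. In diestrus Wnt5a stood above Sfrp1, with overlapping ranges, and above Wnt4, and Fzd1 was among the 3 lowest medians. In FL1 in diestrus Fzd1 had the lowest median, 8.36 CPM, with a range that overlapped that of Rspo1.

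Wnt4, a ligand of granulosa cells and of the developing ovary, lies at chr4:137277489-137299726 on the plus strand of GRCm38. In estrus it was at 162, 156, 156, 249 and 148 CPM in ctrl and at 109, 130, 110, 146 and 129 CPM in FL1. In diestrus it was at 52.4, 43.8, 71.9, 109 and 55.2 CPM in ctrl and at 119, 115, 61.0, 71.5 and 76.7 CPM in FL1. Every ctrl library in diestrus lay below every ctrl library in estrus, while the FL1 stages overlapped. Wnt4 fell by 1.39 on the log2 scale in ctrl (SE 0.23, adjusted p = 0.00674, edgeR) and fell by 0.49 in FL1 (SE 0.16, adjusted p = 0.0458, edgeR). The FL1 call was lost in 6 of 10 fits that left out a library, namely without replicate 2, 4 or 5 of FL1 in estrus or replicate 3, 4 or 5 of FL1 in diestrus, with adjusted p up to 0.115. It was also lost in a joint fit of all 20 libraries (adjusted p = 0.146, edgeR).

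In estrus all FL1 libraries lay below all ctrl libraries for Wnt4 and also for Wnt5a, a pattern without overlap that held for 2 of 10 genes and for 4.85% of all tested genes. The log2 difference of Wnt4 was -0.49 (SE 0.14) with an adjusted p of 0.0988 in edgeR and 0.0426 in DESeq2, so the call depended on the test. In diestrus the difference had the other sign, 0.41 (SE 0.24, adjusted p = 0.401, edgeR). The test of the difference between those line effects gave 0.90 (SE 0.30) with an adjusted p of 0.236 in edgeR's interaction term.

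Wnt5a, a ligand mostly linked with non-canonical signalling, lies at chr14:28504750-28527448 on the plus strand and overlaps the antisense gene Gm2670, whose reads could be mixed with it if counting ignored strand. It was at 123, 131, 132, 122 and 199 CPM in ctrl and at 82.6, 89.1, 119, 105 and 101 CPM in FL1 in estrus. The diestrus libraries were at 77.7, 131, 198, 139 and 128 CPM in ctrl and at 127, 120, 157, 147 and 174 CPM in FL1. Every FL1 library in diestrus lay above every FL1 library in estrus, while the ctrl stages overlapped widely. Wnt5a rose by 0.54 on the log2 scale in FL1 (SE 0.11, adjusted p = 0.00382, edgeR), but not past the threshold in the joint fit of all 20 libraries (adjusted p = 0.0595). In ctrl the stage difference was -0.08 with a 95% interval of -0.53 to 0.38. The line difference in estrus was -0.52 (SE 0.15, adjusted p = 0.0944, edgeR). It was -0.59 to -0.35 in fits that left out a library, replicate 5 of ctrl among them. The interaction was 0.62 (SE 0.26, adjusted p = 0.343, edgeR).

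Wnt4 and Wnt5a had the highest median shares of the ligand counts in every group. Of the summed CPM of the WNT ligand genes, Wnt4 held a median of 37.6% in ctrl and 35.8% in FL1 in estrus, and 18.2% and 23.2% in diestrus. Wnt5a held 31.2% and 26.2% in estrus, and 43.7% and 47.6% in diestrus. The ratio of Wnt4 to Wnt5a had a median of 1.20 in ctrl and 1.32 in FL1 in estrus, and 0.431 and 0.487 in diestrus. The ratio ranged from 0.744 to 2.03 in ctrl in estrus and from 0.335 to 0.787 in ctrl in diestrus, so those groups overlapped, by replicate 5 of ctrl in estrus. The FL1 groups overlapped too, with 0.928 to 1.46 in estrus and 0.388 to 0.957 in diestrus. Another ligand, Wnt6, fell from estrus to diestrus by 1.68 in ctrl (SE 0.11, adjusted p = 1.11e-05) and fell by 1.59 in FL1 (SE 0.16, adjusted p = 4.47e-06, edgeR). Its median share of the ligands was 18.8% and 21.9% in estrus and 7.87% and 7.68% in diestrus in ctrl and FL1. Wnt10b, named after its values were seen, held a median of 5.89% and 7.33% in estrus and 15.8% and 14.8% in diestrus, with up to 39.3% in a single ctrl library in diestrus, and was not called by stage (log2 difference 1.21 in ctrl, adjusted p = 0.144, and 0.69 in FL1, adjusted p = 0.0882, edgeR).

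**Figure D2:**
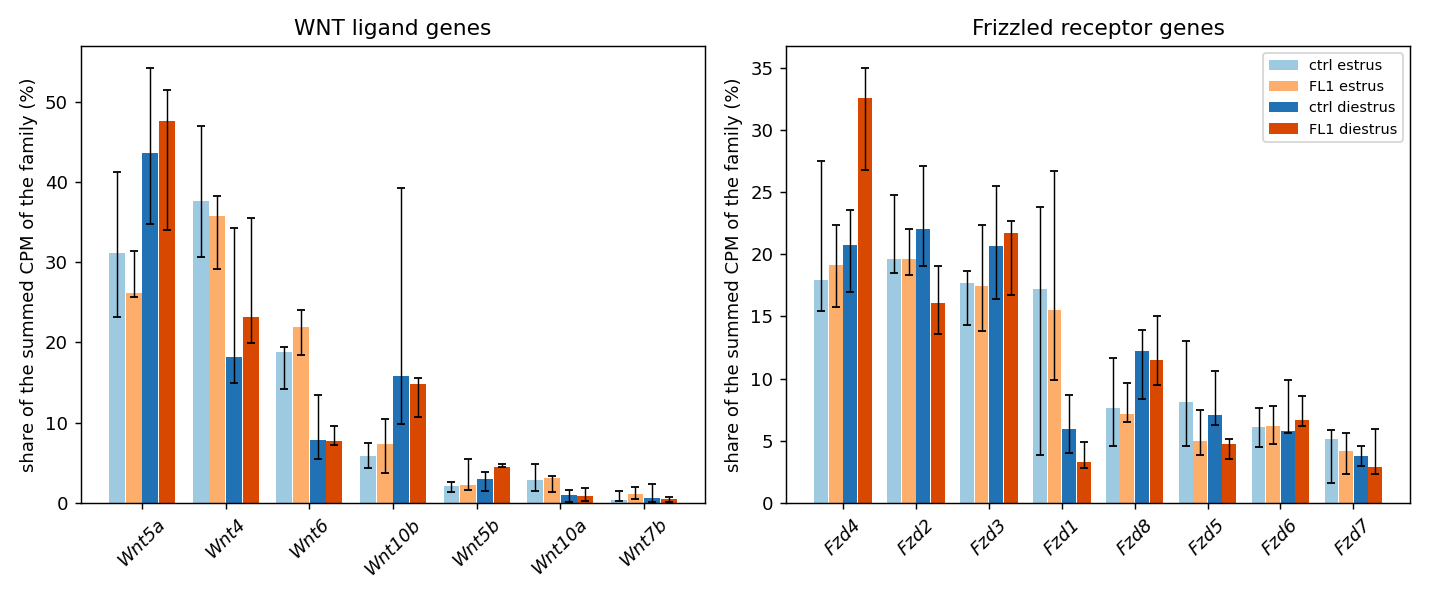
Shares of the summed CPM of the WNT ligand genes (left) and of the frizzled receptor genes (right) by gene (x axis) in percent (y axis). Bars are medians over 5 libraries and whiskers the lowest and highest library; by median Wnt4 has the larger share in estrus and Wnt5a in diestrus, and Fzd4 makes up 32.6% of the frizzled counts in FL1 in diestrus.

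Rspo1, an R-spondin that amplifies WNT signalling, lies at chr4:124986430-125009099 on the plus strand, overlaps the antisense gene Gm12930, and was weakly expressed. It was at 6.12 to 9.53 CPM in ctrl and 7.82 to 18.7 CPM in FL1 in estrus, and at 5.25 to 11.9 CPM in ctrl and 7.81 to 14.1 CPM in FL1 in diestrus. With 35 to 126 counts per library, the ranges overlapped in all comparisons. The line differences were 0.52 in estrus (SE 0.25, adjusted p = 0.334) and 0.45 in diestrus (SE 0.25, adjusted p = 0.379, edgeR). Of the 8 tested genes of the R-spondin axis, 3 were higher and 1 lower in diestrus in FL1, against 8.49% and 7.42% of tested genes. Lgr4, Lgr5 and Lgr6, which encode R-spondin receptors, were higher by 0.61, 0.78 and 0.80 on the log2 scale, and Rspo3 fell by 1.10. In ctrl 0 of these 8 were called, against 2.85% of all tested genes. Lgr4, Lgr5 and Lgr6 differed there by 0.72, 1.17 and 0.94 (adjusted p = 0.0968, 0.204 and 0.0719, edgeR).

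Among the receptors, Fzd1 and Fzd4 moved in opposite directions in FL1. Fzd4, a frizzled receptor, lies at chr7:89404355-89413134 on the plus strand, and Fzd1, another frizzled receptor, at chr5:4753839-4758035 on the minus strand; neither overlaps another gene. The promoters of these receptors and of the target gene Axin2, as given in RefSeq for GRCm38.p6 and cut at the more upstream of the RefSeq and GENCODE starts, are shown to compare the letters before genes that differ in their change. Capitals mark GGGCGG (GC box), CCAAT or TATAAA on either strand, and the sequences run 5′ to 3′ along the gene from at most 250 bases upstream.
Fzd4 chr7:89404116-89404354: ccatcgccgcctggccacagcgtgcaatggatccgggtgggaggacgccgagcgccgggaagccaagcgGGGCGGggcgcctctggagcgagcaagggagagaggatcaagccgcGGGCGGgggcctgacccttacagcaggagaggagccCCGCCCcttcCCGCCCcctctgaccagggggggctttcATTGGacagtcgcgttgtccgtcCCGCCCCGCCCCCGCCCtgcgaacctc
Fzd1 chr5:4758217-4758466: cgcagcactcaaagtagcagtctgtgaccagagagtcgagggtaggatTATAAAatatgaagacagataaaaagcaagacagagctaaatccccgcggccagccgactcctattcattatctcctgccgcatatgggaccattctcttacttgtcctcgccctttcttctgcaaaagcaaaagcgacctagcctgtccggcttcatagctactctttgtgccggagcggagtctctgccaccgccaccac
Axin2 chr11:108920099-108920348: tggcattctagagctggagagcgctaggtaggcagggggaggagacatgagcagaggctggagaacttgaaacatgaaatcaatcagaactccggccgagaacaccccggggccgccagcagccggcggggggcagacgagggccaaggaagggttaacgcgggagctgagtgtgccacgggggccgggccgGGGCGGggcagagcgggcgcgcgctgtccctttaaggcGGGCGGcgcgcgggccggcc
The Fzd4 window had 72.8% G and C and held 7 GC boxes and 1 CCAAT box, the Axin2 window had 69.2% G and C and held 2 GC boxes, and the Fzd1 window had 51.2% G and C and held 1 TATAAA and no GC box. Of 32851 promoters, 31.2% held a GC box and 33.0% a CCAAT box in a window of 239 bases, and 32.7% held a GC box and 12.4% TATAAA in a window of 250 bases. TCF/LEF motifs (CTTTG followed by A or T at each of the next 2 places) matched in none of the 3 windows, and 14.8% of the promoters held one in 250 bases.

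Fzd4 was stronger expressed in FL1 in diestrus than in any other group. In estrus it was at 35.8, 46.7, 45.3, 38.1 and 39.4 CPM in ctrl and at 37.1, 48.0, 43.0, 47.7 and 36.0 CPM in FL1. In diestrus it was at 36.7, 45.1, 49.5, 37.4 and 37.6 CPM in ctrl and at 80.3, 54.9, 77.1, 88.9 and 85.4 CPM in FL1. The lowest library of FL1 in diestrus lay above the highest of the other groups, and these other groups shared a range of 35.8 to 49.5 CPM.

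In diestrus Fzd4 was 1.87-fold higher in FL1 than in ctrl, a log2 difference of 0.90 (SE 0.13, adjusted p = 0.00153, edgeR), and 2.29% of all tested genes were called higher in FL1 there. The call was kept in 10 of 10 fits that left out a library. Fzd4 was among the genes the study picked from these libraries, so the call is not independent evidence. In estrus the line difference was 0.04 with a 95% interval of -0.22 to 0.30.

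Fzd4 rose from estrus to diestrus by 0.87 in FL1 (SE 0.13, adjusted p = 0.000236, edgeR), a comparison that shares its 5 diestrus libraries with the line comparison. In ctrl the stage difference was 0.01 with a 95% interval of -0.26 to 0.28. The difference of the line effects between the stages was 0.86 (SE 0.18) with an adjusted p of 0.0754 in edgeR, where 0.0565% of all tested genes were called for an interaction and 0 of 10 WNT genes. DESeq2 called it (adjusted p = 0.00692), and so did edgeR without replicate 2 of FL1 in diestrus (adjusted p = 0.0248). An unadjusted p under 0.05 was reached by 3 of 10 (Fzd4, Wnt4 and Wnt5a), against 11.7% of all tested genes. DESeq2 called 150 of 14148 tested genes for an interaction.

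Markers of several cell types moved with Fzd4 by stage in FL1. Called higher in diestrus were 3 of 3 tested theca and interstitial markers (Cyp17a1, Hsd3b1 and Cyp11a1, with Insl3 not tested). So were 4 of 6 luteal, 4 of 5 blood, 3 of 4 endothelial and 2 of 7 granulosa markers, against 8.49% of tested genes. Called lower were 4 of 5 stromal, 4 of 6 smooth muscle and 4 of 7 surface epithelium markers, against 7.42% of tested genes. Also lower were 1 of 6 luteal, 1 of 2 cumulus, 1 of 8 oocyte and 1 of 4 fat markers. Of the endothelial markers, Kdr, Cdh5 and Pecam1 rose from estrus to diestrus in FL1 by 0.79, 0.59 and 0.75 on the log2 scale (adjusted p = 0.000144, 0.000427 and 0.000332, edgeR), and Tek did not pass. Their summed level with Tek was 179 to 232 CPM in FL1 in estrus and 280 to 371 CPM in FL1 in diestrus. It was 244 to 357 CPM in ctrl in diestrus. Of these 4 markers 0 were called between the lines in diestrus, against 4.11% of all tested genes, with a median log2 difference of 0.15. Called there were also 1 of 7 granulosa and 1 of 5 blood markers, higher in FL1, and 1 of 7 surface epithelium markers, lower in FL1. The luteal marker Lhcgr, the receptor for luteinizing hormone, was higher in FL1 in diestrus by 1.43 (SE 0.32, adjusted p = 0.0209, edgeR) and was 1 of 6 luteal markers called there, with luteal sums of 16067 to 31131 CPM in ctrl and 17014 to 24185 CPM in FL1. The part of these markers in the Fzd4 difference was not tested, and in whole ovaries fewer cells of a type and less RNA per cell cannot be told apart.

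Fzd1 fell in FL1 the most of the 10 genes in that comparison. In estrus it was at 38.2, 41.7, 45.5, 58.3 and 5.5 CPM in ctrl and at 26.0, 21.2, 33.7, 65.4 and 60.8 CPM in FL1. The diestrus levels were at 7.4, 11.4, 11.2, 12.6 and 19.2 CPM in ctrl and at 8.5, 8.4, 6.9, 7.1 and 12.1 CPM in FL1. All estrus libraries but replicate 5 of ctrl lay above all diestrus libraries.

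Fzd1 fell from estrus to diestrus by 2.28 on the log2 scale in FL1 (SE 0.29, adjusted p = 5.34e-05, edgeR). In ctrl the difference was -1.63 (SE 0.43, adjusted p = 0.0667, edgeR), and -1.90 (SE 0.23, adjusted p = 0.00104) without replicate 5 of ctrl in estrus. The line difference in diestrus was -0.53 (SE 0.25, adjusted p = 0.284, edgeR), and in estrus it was 0.12 with replicate 5 and -0.15 without it. The ratio of Fzd4 to Fzd1 had a median of 0.997 in ctrl and 1.28 in FL1 in estrus and 3.98 and 9.44 in diestrus. It ranged from 1.96 to 4.97 in ctrl and from 6.56 to 12.5 in FL1 in diestrus, without overlap, and from 0.654 to 7.16 in ctrl in estrus, where replicate 5 had the highest value. Among the frizzled genes, Fzd4 held a median share of 18.0% and 19.2% in estrus and 20.8% and 32.6% in diestrus in ctrl and FL1, and Fzd1 held 17.2%, 15.5%, 5.93% and 3.31% in the same order of groups.

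Of the other frizzled receptors, Fzd8 was higher in diestrus in FL1 by 0.74 (SE 0.15, adjusted p = 0.00353, edgeR). With Fzd1 and Fzd4, 3 of the 8 tested frizzled genes were called there, 2 higher and 1 lower, against 15.9% of all tested genes. In ctrl 0 of 8 were called by stage, against 2.85% of all tested genes. Fzd8 differed there by 0.28 to 0.51 on the log2 scale in fits that left out a library. Lrp6, the coreceptor of the canonical branch at chr6:134446476-134566965 on the minus strand, varied little. It was at 56.0 to 90.4 CPM in ctrl and 51.3 to 79.2 CPM in FL1 in estrus, and at 67.7 to 95.3 CPM in ctrl and 72.8 to 81.6 CPM in FL1 in diestrus. Its stage difference in FL1 was 0.27 (SE 0.10, adjusted p = 0.0916, edgeR), and it was called there only without replicate 5 of FL1 in estrus (adjusted p = 0.0241). In the other comparisons it was not called.

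The antagonists Sfrp1 and Sfrp4 changed in opposite directions with the stage in FL1. Sfrp1, at chr8:23411502-23449632 on the plus strand, was at 175, 314, 276.8, 358 and 452 CPM in ctrl and at 151, 186, 164, 236 and 197 CPM in FL1 in estrus. In diestrus it was at 134, 128, 142, 101 and 130 CPM in ctrl and at 110, 114, 84.9, 103 and 122 CPM in FL1. Within each line all diestrus libraries lay below all estrus libraries.

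Sfrp1 fell from estrus to diestrus by 1.32 in ctrl (SE 0.20, adjusted p = 0.00437, edgeR) and fell by 0.81 in FL1 (SE 0.12, adjusted p = 0.000223, edgeR). In estrus the mean of FL1 was 0.593 times that of ctrl, a log2 difference of -0.76 (SE 0.20, adjusted p = 0.0709, edgeR), and it was called by DESeq2 (adjusted p = 0.0117) and without replicate 1 of ctrl in estrus (adjusted p = 0.00989, edgeR). In diestrus the line difference was -0.25 (SE 0.11, adjusted p = 0.236, edgeR). The stromal markers Col1a1 and Pdgfra also differed by stage, with log2 differences of -1.01 and -0.78 in ctrl and -1.004 and -0.83 in FL1. Of 5 stromal markers 2 were called in ctrl and 4 in FL1, all lower, against 1.78% and 7.42% of tested genes. The stromal sum was 1900 to 2872 CPM in ctrl in estrus and 1006 to 1612 CPM in ctrl in diestrus, and 1529 to 2241 and 962 to 1303 CPM in FL1. Their part in the Sfrp1 difference was not tested.

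Sfrp4, at chr13:19623104-19632994 on the plus strand, was the most abundant of the 10 genes. In estrus it was at 2199, 1814, 657, 1054 and 3971 CPM in ctrl and at 1487, 1327, 2121, 1662 and 2502 CPM in FL1. The levels in diestrus were 4071, 4844, 5724, 6447 and 4469 CPM in ctrl and at 3298, 4890, 4582, 4052 and 3036 CPM in FL1. Each diestrus library lay above each estrus library of its line, by a small margin in ctrl, where the highest estrus library was replicate 5.

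Sfrp4 rose by 1.13 in FL1 (SE 0.17, adjusted p = 0.000258, edgeR). In ctrl the difference was 1.39 (SE 0.37, adjusted p = 0.0691, edgeR), and without replicate 5 of ctrl in estrus it was called at 1.85 (SE 0.30, adjusted p = 0.00624). The line difference was -0.11 in estrus (0.35 without that replicate) and -0.37 in diestrus (SE 0.15, adjusted p = 0.22, edgeR). Sfrp4 held a median of 83.4% and 89.4% of the SFRP counts in estrus and 97.0% and 97.4% in diestrus, in ctrl and FL1. The ratio of Sfrp4 to Wnt4 had a median of 11.6 in estrus and 79.6 in diestrus in ctrl, and of 13.7 and 42.5 in FL1, and the stages did not overlap in either line. Luteal marker sums also differed by stage, with 5382 to 22718 CPM in ctrl in estrus, 16067 to 31131 CPM in ctrl in diestrus, 9409 to 21924 CPM in FL1 in estrus and 17014 to 24185 CPM in FL1 in diestrus, and their part in the Sfrp4 difference was not tested. Sfrp2, another SFRP, fell by 3.34 from estrus to diestrus in FL1 (SE 0.47, adjusted p = 0.00013, edgeR). It had only 3 to 22 counts per library in FL1 in diestrus. In ctrl Sfrp2 was called by stage in 0 of 10 fits that left out a library, with differences of -2.16 to -1.41.

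**Figure D3:**
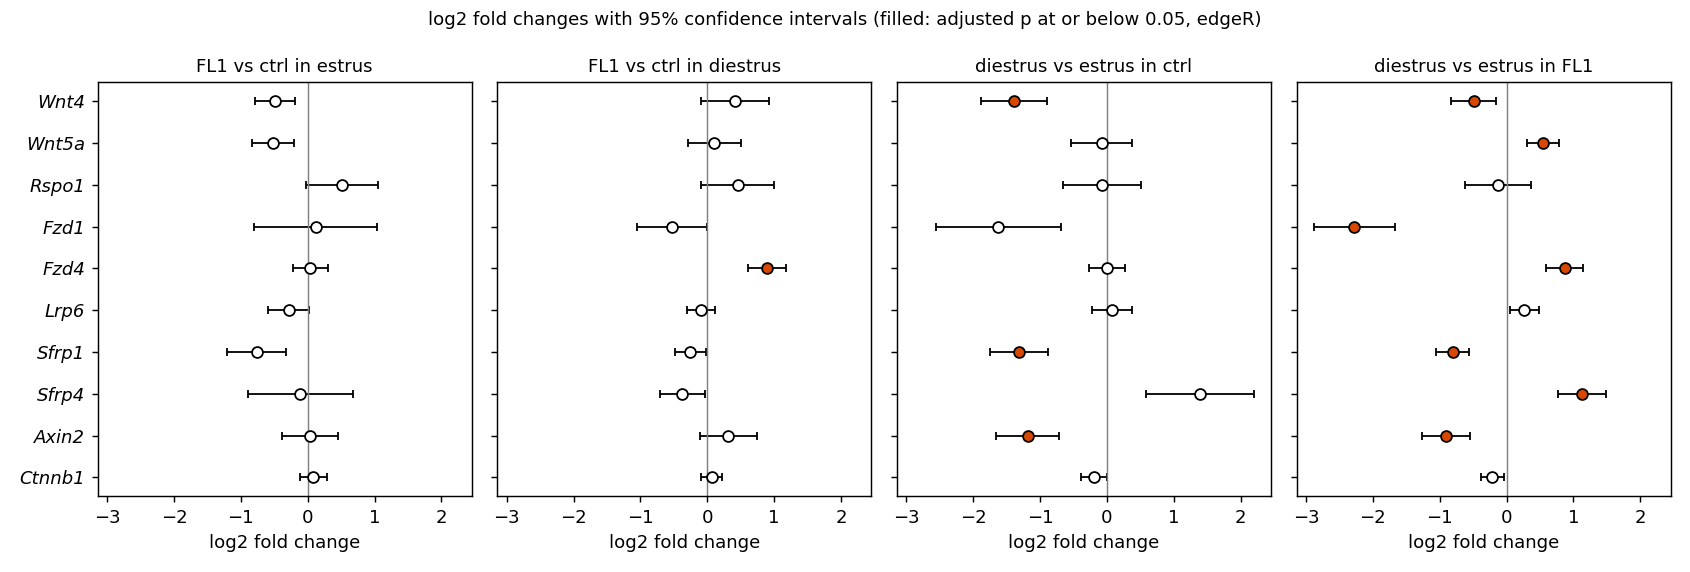
Log2 fold changes (x axis) with 95% confidence intervals of the 10 WNT pathway genes (y axis) in 4 comparisons, with the first-named group minus the second. Filled points had an adjusted p of at most 0.05; 0 of 10 are filled in estrus, 1 for the lines in diestrus, 3 for the stages in ctrl and 7 for the stages in FL1.

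Axin2, the negative feedback gene at chr11:108920349-108950783 on the plus strand, was weakly expressed and overlaps the antisense gene Gm11670. In estrus it was at 22.8, 23.2, 21.9, 22.5 and 11.02 CPM in ctrl and at 16.9, 21.7, 21.4, 25.9 and 18.7 CPM in FL1. In diestrus it was at 9.4, 10.0, 7.6, 6.7 and 10.8 CPM in ctrl and at 11.1, 14.8, 8.5, 9.7 and 11.5 CPM in FL1. All diestrus libraries of a line lay below its estrus libraries, and in ctrl the gap was small because of replicate 5. With 41 to 239 counts per library, Axin2 fell by 1.19 in ctrl (SE 0.22, adjusted p = 0.0114, edgeR; -1.33 without replicate 5) and fell by 0.91 in FL1 (SE 0.17, adjusted p = 0.00171, edgeR). The line differences were 0.03 in estrus (-0.11 without replicate 5 of ctrl) and 0.31 in diestrus (SE 0.20, adjusted p = 0.453, edgeR).

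Ctnnb1, at chr9:120929216-120960507 on the plus strand, encodes β-catenin and varied little, with an SD of 21.6 to 76.0 CPM around means of 783 to 952 CPM (n = 5). It was at 835 to 937 CPM in ctrl and 860 to 1060 CPM in FL1 in estrus, and at 733 to 853 CPM in ctrl and 801 to 848 CPM in FL1 in diestrus. It overlaps the antisense genes Ulk4 and 4930593C16Rik and the microRNA gene Mir7090. In FL1 all diestrus libraries lay below all estrus libraries, with a difference of -0.21 (SE 0.08) that was not called by edgeR (adjusted p = 0.0796) but by DESeq2 (adjusted p = 0.0218). The pattern without overlap held for 7 of 10 genes in the FL1 stage comparison, for 4 of 10 in ctrl and for 1 of 10 between the lines in diestrus, against 12.1%, 4.56% and 5.4% of all tested genes.

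The wider pathway was described with a list of 105 WNT genes, 95 of them beyond these 10. From estrus to diestrus, 28 of the 80 tested genes were called in FL1, 14 higher and 14 lower, against 15.9% of all tested genes (8.49% higher and 7.42% lower). These counts include the 10 genes already described. Without them 70 were tested in FL1, with 11 higher and 10 lower (30% called). In ctrl 8 of 79 were called, all lower, against 2.85% of all tested genes (1.78% lower), and 5 of 69 (7.25%) without the 10 genes. The median log2 difference of the list was -0.05 in FL1 and -0.12 in ctrl, against -0.0071 and 0.0058 over all tested genes. Ligands shifted in both directions in FL1, with Wnt5b and Wnt5a higher and Wnt4, Wnt6, Wnt7b and Wnt10a lower. The genes for ligand export fell in FL1: Wls by 0.45 (adjusted p = 0.015) and Porcn, which attaches a lipid to WNT ligands, by 0.93 (adjusted p = 0.0176, edgeR). Tnfrsf19, a receptor of the TNF family, fell by 1.72 in ctrl and fell by 1.40 in FL1, and Wnt10a fell by 2.49 and by 1.63. The corepressor genes Tle2 and Tle3 and the repressive transcription factor gene Tcf7l1 were higher in diestrus in FL1 by 1.29, 0.45 and 0.37, as were the destruction complex genes Gsk3b and Apc by 0.39 and 0.39, while the feedback antagonist Nkd1 and the polarity receptor gene Ptk7 fell by 0.52 and by 0.48. In ctrl Dkk3 and the coactivator Bcl9l fell by 0.57 and by 0.50.

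Between the lines, 1 of 81 tested genes was called in estrus (1.23%, against 2.33% of all tested genes) and 5 of 79 in diestrus (6.33%, against 4.11%), all 5 higher in FL1. Without the 10 genes, Fzd4 among them, 1 of 71 was called in estrus (1.41%) and 4 of 69 in diestrus (5.80%). Ror1, a receptor for Wnt5a, was lower in FL1 in estrus by 0.99 (SE 0.23, adjusted p = 0.0381, edgeR), but was called in 3 of 10 fits that left out a library. In diestrus Celsr1, a planar polarity gene, was higher by 0.92 (SE 0.17, adjusted p = 0.00852), Daam1, a formin of the same branch, by 0.61 (SE 0.12, adjusted p = 0.0093) and Wnt5b by 0.85 (SE 0.19, adjusted p = 0.0209, edgeR). Tnks, a regulator of axin stability, was higher by 0.37 (adjusted p = 0.0468, edgeR) and was called in 2 of 10 fits that left out a library. In the joint fit of all 20 libraries Celsr1 and Tnks were not called (adjusted p = 0.055 and 0.0764, edgeR). Wnt5b was at 13.6 to 16.4 CPM in FL1 and at 5.38 to 11.5 CPM in ctrl in diestrus, and was not called without replicate 2 of ctrl or replicate 1 of FL1 in diestrus (adjusted p = 0.0505 and 0.0536). Of the stage calls in FL1, Lgr6 was kept in 7, Wnt7b in 6, Apc and Ptk7 in 5, Tle3 in 4, Nkd1 and Daam1 in 3 and Wnt5b in 1 of 10 such fits. In the joint fit the FL1 stage calls of Lgr5, Lgr6, Wls, Nkd1, Ptk7, Tle3, Wnt7b and Daam1 were lost. Of the stage calls in ctrl, Tnfrsf19 and Bcl9l were kept in 8, Wnt10a in 7 and Dkk3 in 2 of 10.

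**Figure D4:**
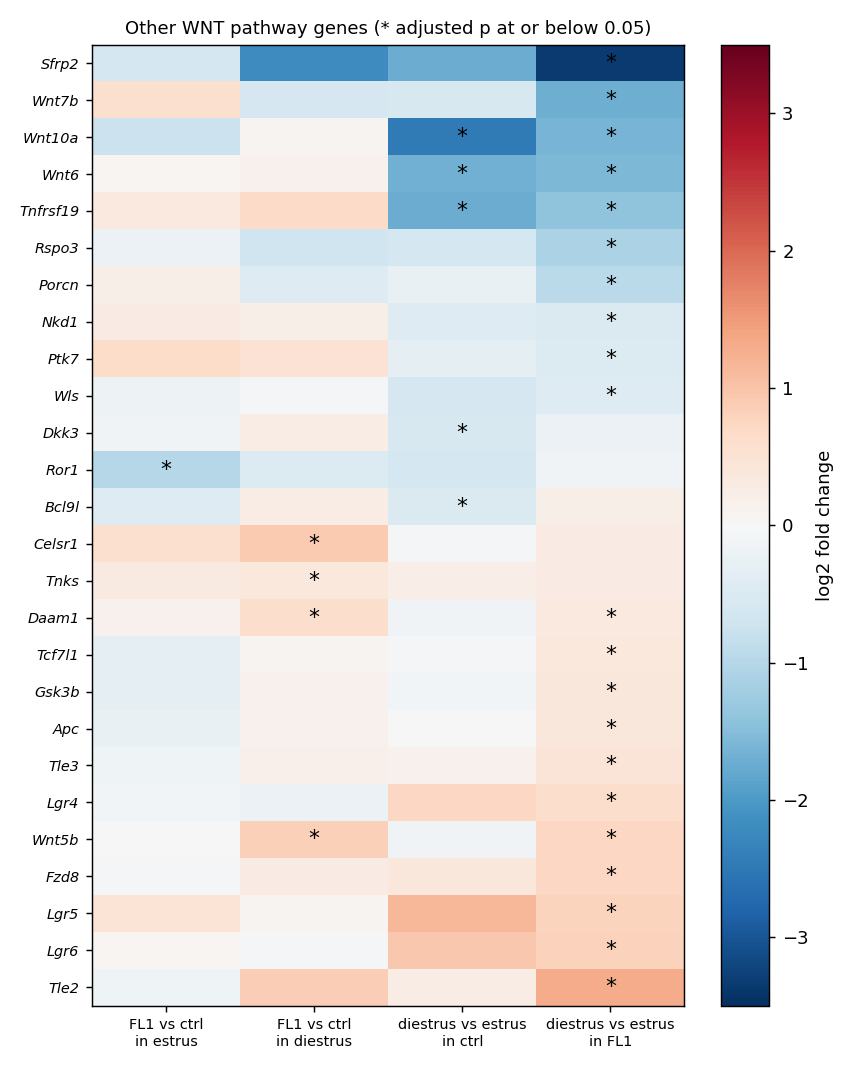
Log2 fold changes (colour) of 26 other WNT pathway genes (y axis) in 4 comparisons (x axis), with the first-named group minus the second. Asterisks mark an adjusted p of at most 0.05; Sfrp2, Wnt6, Wnt10a and Tnfrsf19 are blue in both stage comparisons, and the calls of the line in diestrus are red.

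Likeness of pattern was given for the 3 genes with the smallest adjusted p, Fzd1, Sfrp1 and Fzd4, as Pearson's r of log2 CPM over 20 libraries, among 9555 genes with a mean of at least 10 CPM. These libraries share depth and the groups of line and stage, and no p is given. Fzd1 was most like Plat, the gene of tissue plasminogen activator (r = 0.91), then Ctbp1 (r = 0.89) and Plac8 (r = 0.89). Sfrp1 was most like Loxl1 (r = 0.94), Bgn (r = 0.93) and Map1a (r = 0.92), of which Loxl1 and Bgn encode matrix proteins. Fzd4 was most like Lrp8 (r = 0.88), Txnrd1 (r = 0.88) and Cat (r = 0.87), and within the groups these values dropped to 0.52, 0.46 and 0.57. Lrp8 had a mean of 41.9 CPM in FL1 in diestrus and of 12.2 to 17.2 CPM in the other groups.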

How the data were processed

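The authors prepared QuantSeq 3' libraries from ovary RNA, aligned reads to GRCm38 with STAR and deposited raw counts per Ensembl gene, 1 table per library. The labels also name Cuffdiff, and the strand setting and counter are not given in the sources used here. Line, stage and replicate came from the sample titles, and a source name reading FL1 in all samples was not used.

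Counts were tested with edgeR 4.0.16's quasi-likelihood test (R 4.3.3, TMM, filterByExpr with a minimum count of 10), within the 10 libraries of each comparison and over 20 for the interaction, with Benjamini-Hochberg adjustment over all tested genes and a threshold of 0.05. The test was checked on simulated counts. Log2 CPM used a prior count of 2. Symbols and positions came from GENCODE M21. Promoters were matched for 6 of 10 genes and proteins were not used here.

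Alternatives were DESeq2 1.42.0, limma-voom (limma 3.58.1), RLE factors, other count filters, a joint fit, a replicate block, and each library left out. Same-numbered libraries are different animals, and their deviations correlated at -0.134 to 0.163. Libraries with different numbers were not compared in this way, so these values cannot tell whether same-numbered libraries share a batch. The 10 genes and all lists were chosen with earlier results of these data known. Besides the 10 genes, WNT list genes past the threshold (up to 20 per comparison), the 3 most alike genes of the 3 genes with the smallest adjusted p, and markers beside a result were named. Nothing in the labels says more of how animals were sampled. The p-values set a group difference against the variation between these ovaries, with 1 population per line.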

Additional observations from a re-analysis of the deposited data

Results flagged for a closer look

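Of 40 sets of 5 libraries (10 genes in 4 groups), 3 held a library farther from the others than a Dixon test at the 95% level allows. The 10 genes were measured in the same libraries, so these sets are not independent, and their number was not set against chance. All 3 were in ctrl in estrus. Wnt4 was at 248.7 CPM in replicate 4 against 148 to 162 CPM in the others. Wnt5a was at 198.8 CPM in replicate 5 against 122 to 132 CPM. Axin2 was at 11.02 CPM in replicate 5 against 21.9 to 23.2 CPM.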

How the results depend on the processing

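Between the lines in estrus, 0 genes of 10 were called in edgeR, 3 in DESeq2, 2 with no filter beyond 1 count, 1 with the replicate block (Sfrp1, adjusted p = 0.0346) and 1 in the joint fit of all 20 libraries. Between the stages in ctrl, 3 were called in edgeR and 5 in DESeq2, limma-voom, without the filter and in the joint fit. Between the stages in FL1, 7 were called in edgeR, 8 in DESeq2 (with Ctnnb1) and 5 in the joint fit (without Wnt4 and Wnt5a). The interaction gave 0, and 1 in DESeq2. Over all genes, the calls between the lines in estrus were 311, and 647 in DESeq2, 477 without the filter and 531 in the joint fit. In diestrus they were 545, and 861 in DESeq2 and 846 without the filter. Between the stages in ctrl they were 380, and 788 in DESeq2, 655 in limma-voom and 909 in the joint fit. Between the stages in FL1 they were 2123 of 13350 tested genes, and 2510 of 13350 in DESeq2 and 1520 of 14154 in the joint fit. The interaction called 8, and 150 in DESeq2, 31 in limma-voom and 17 without the filter. With the replicate block the counts were 230, 498, 259, 2020 and 12 for the lines in estrus and diestrus, the stages in ctrl and FL1 and the interaction, and the block changed no other call of the 10 genes.

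Leaving out each library in turn, 175 to 418 genes were called in estrus, 349 to 594 in diestrus, 176 to 516 by stage in ctrl, 1582 to 2316 by stage in FL1 and 0 to 15 for the interaction. Of the 10 genes, 0 to 1, 1 to 1, 3 to 5, 6 to 7 and 0 to 1 were called in the same order. Signs turned for differences that were not called. For the lines in estrus, leaving out libraries gave Fzd1 -0.15 to 0.33, Fzd4 -0.014 to 0.090, Sfrp4 -0.33 to 0.35 and Axin2 -0.11 to 0.10, and in diestrus Wnt5a -0.044 to 0.28. For the stages in ctrl it gave Wnt5a -0.25 to 0.089, Rspo1 -0.30 to 0.038, Fzd4 -0.061 to 0.055 and Lrp6 -0.012 to 0.14, in FL1 Rspo1 -0.25 to 0.095, and for the interaction Rspo1 -0.18 to 0.17 and Ctnnb1 -0.054 to 0.021. In limma-voom Sfrp4 was 0.27 and Axin2 -0.020 for the lines in estrus, Wnt5a 0.040 for the stages in ctrl, and Rspo1 0.054 and Ctnnb1 0.014 for the interaction. With the replicate block Sfrp4 was 0.10 for the lines in estrus and Rspo1 0.029 for the interaction. The cause of these changes was not tested. The levels of the 10 genes stayed within 1 SD under other scalings. Depth limits Fzd1, Rspo1 and Axin2, with as few as 32, 35 and 41 counts in a library, and Fzd1 had 44 to 72 counts in FL1 in diestrus. Of the other named genes, depth limits Sfrp2, Wnt10a and Wnt7b, with as few as 3, 3 and 1 counts in a library.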
